A study of Mus musculus with 6 samples.

Results

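Ppp2r3d and 9 further genes for subunits of protein phosphatase 2A (PP2A) were examined in the deposited table of 32219 mouse genes. The 10 genes were taken by symbol, and all 10 were found and passed the filter on low values. Ppp2r3d had been picked because its values in these libraries stood apart, so its own difference is given below as a description with no test. The other 9 were picked by family, and the question asked of them was whether Ppp2r3d moved alone.

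The libraries are bulk RNA-seq of mouse intestine, 3 labelled KO and 3 labelled WT, with whole duodenum named in the series design text. Which gene was knocked out, and in which cells, is not named in the labels, nor are the strain, age and number of mice. The series title speaks of GPR41 and DHX9 signalling in enteric neurons. The labels list epithelium, immune cells and enteric neurons as the cells sampled and name no treatment. RNA was taken with TRIzol, selected for polyA and made into libraries with a stranded low-input kit. No label says that each library came from its own mouse, so a p-value here speaks of the variation among libraries, part of which may be technical.

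PP2A is a serine/threonine phosphatase built from a catalytic subunit, a scaffold and 1 exchangeable regulatory subunit. The regulatory subunit, drawn from the B, B′, B″ or striatin families, decides which phosphoproteins the enzyme acts on and where. In the gut epithelium PP2A is known to act on Wnt signalling, on cell junctions and on the cell cycle. Ppp2r3d encodes a B″ subunit, described in mouse under the name PR59 as a partner of a retinoblastoma-related protein.

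The library KO 1 holds no values on chromosomes 2 to 9, X and M and on most of chromosome 19, where its listed zeros were treated as missing. Where it has values they stood 2.12-fold above the other libraries (median over 2160 genes). This leaves KO 1 without a value for Ppp2r3d, Ppp2r3a and Ppp2r1b, all on chromosome 9, and for Ppp2cb on chromosome 8. KO was therefore compared with WT over KO 2, KO 3 and the 3 WT libraries, and KO 1 is given beside them for the 6 members that it covers, with its linear values divided by that factor. The other 5 libraries carried distal gut genes, such as Fabp6 at 8.16 to 8.76, and little Gata4, at 0.43 to 0.63, whereas KO 1 after rescaling had Fabp6 at 3.91 and Gata4, a factor of the proximal small intestine, at 5.19. The 5 libraries compared thus went against the duodenum of the design text by these markers, and KO 1 stood apart from them. The deposited values are on a log scale with no stated base and are taken here as log2(abundance + 1). The length scaling of the abundance is not stated, so levels are compared within a gene and not between genes.

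The B″ genes are shown first by the sequence at their annotated start sites, since Ppp2r3d lies at a break in the reference. GENCODE vM21 places Ppp2r3d (ENSMUSG00000093803.3) on the minus strand of chromosome 9, bases 124422622 to 124476898, and marks it as a fragmented locus. It has 8 transcript models there, of which 7 are protein-coding and 6 lack a start or an end. The longest is a single stretch of 2557 bases and the next longest has 777. Both lie at the end of the gene beside that break and are marked as lacking a start. The start used below may therefore not be the true one. In the RefSeq promoter window of Ppp2r3d (GRCm38.p6, 250 bases before to 50 after the start), a run of 100 unknown bases ends 67 bases before the start. The known bases from that gap on, chr9:124476813-124476929 on the minus strand, are given with the whole windows of its relatives Ppp2r3a, chr9:101251783-101252082, and Ppp2r3c, chr12:55302951-55303250, both also on the minus strand. Capitals mark GGGCGG or its reverse complement CCGCCC, the GC box bound by SP1-type factors.
Ppp2r3d: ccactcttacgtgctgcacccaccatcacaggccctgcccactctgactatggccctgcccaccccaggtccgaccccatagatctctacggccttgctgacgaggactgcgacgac
Ppp2r3a: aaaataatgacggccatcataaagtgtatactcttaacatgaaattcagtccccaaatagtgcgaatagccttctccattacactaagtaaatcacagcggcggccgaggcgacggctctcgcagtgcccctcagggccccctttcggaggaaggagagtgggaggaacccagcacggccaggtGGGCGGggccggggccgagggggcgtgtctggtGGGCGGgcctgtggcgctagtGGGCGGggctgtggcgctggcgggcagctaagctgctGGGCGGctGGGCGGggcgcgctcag
Ppp2r3c: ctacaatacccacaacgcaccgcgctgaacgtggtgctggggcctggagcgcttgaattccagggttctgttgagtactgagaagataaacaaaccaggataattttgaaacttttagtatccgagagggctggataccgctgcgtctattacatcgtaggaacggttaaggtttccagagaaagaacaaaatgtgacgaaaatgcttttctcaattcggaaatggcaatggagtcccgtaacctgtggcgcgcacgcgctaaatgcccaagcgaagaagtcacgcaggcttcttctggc
The Ppp2r3a window held 5 GC boxes and 23 CG dinucleotides, against a median of 7 CG dinucleotides over 32841 windows with no gap. The Ppp2r3c window held 19 CG dinucleotides and 0 GC boxes. The 117 known bases at Ppp2r3d held 6 and 0, but they may not be its promoter and cannot be compared with the whole windows. Of all windows with no gap, 35.7% held a GC box on either strand.

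Ppp2r3d was the member that stood apart. Its level was 4.83 in KO 2 and 4.37 in KO 3, against 3.16, 3.19 and 3.16 in the WT libraries. Both KO libraries lay above all 3 WT libraries. The WT range was 0.036, which is among the values the gene was picked for and so is no measure of support. The log2 fold was 1.43 ± 0.15 (SE, 2 KO against 3 WT libraries), or 2.69-fold on the log2(abundance + 1) scale. The linear fold depends on the assumed base and would be 4.18-fold if the values were natural logs. KO 2 and KO 3 themselves differed by 0.46. Of all 22047 genes tested, 9.82% were likewise higher in KO with no overlap, and 0.109% had a log2 fold at 1 or more.

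**Figure D1:**
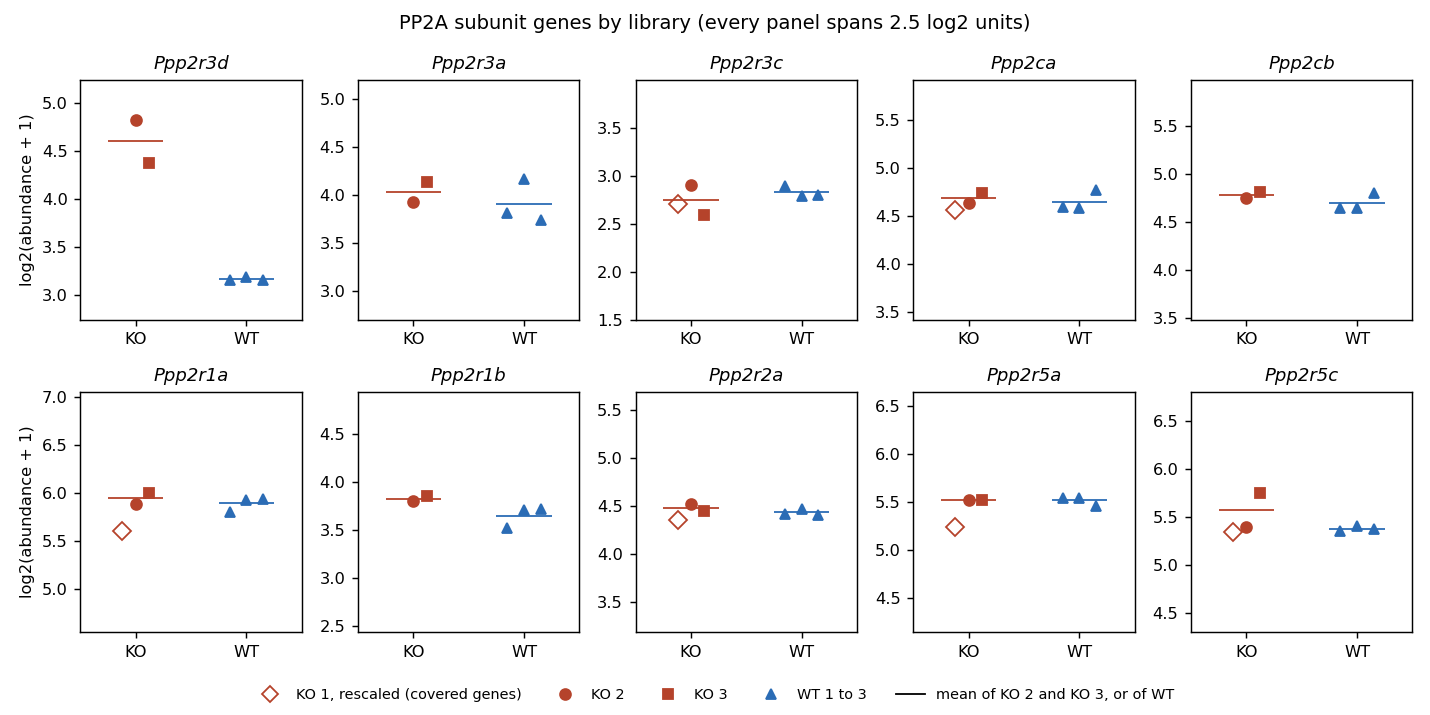
Level of each of the 10 PP2A subunit genes in every library, as log2(abundance + 1), with KO on the left and WT on the right of each panel. Filled symbols are the libraries compared, open diamonds are KO 1 after rescaling for the 6 covered genes, and lines are the means of KO 2 and KO 3 or of WT. Ppp2r3d in KO 2 (4.83) and KO 3 (4.37) lies well above WT (3.16 to 3.19), while the other panels show close or overlapping groups.

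The other B″ genes did not follow Ppp2r3d. Ppp2r3a, whose human products have been tied to Wnt signalling, stood at 3.93 and 4.13 in KO 2 and KO 3, against 3.82, 4.16 and 3.74 in WT. The groups overlapped, and WT 2 was the highest of the 5 libraries. The log2 fold was 0.13 ± 0.15 (SE; limma adjusted p = 0.99998, 95% interval -0.25 to 0.50).

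Ppp2r3c, a B″-type subunit known in mouse for its part in lymphocyte survival, stood at 2.90 in KO 2 and 2.59 in KO 3, against 2.89, 2.79 and 2.80 in WT. KO 2 lay at the top of the WT libraries and KO 3 below them all. Its log2 fold was -0.08 ± 0.14 (SE; limma adjusted p = 0.99998, interval -0.43 to 0.27). KO 1, which covers chromosome 12, stood at 2.71 after rescaling. A transcript of Ppp2r3c shares 2652 bases at 98.3% identity with Fam177a and with 1700047I17Rik2, so the split of reads among these genes is uncertain. It also shares 243 exon bases with Prorp on the opposite strand.

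Neither catalytic subunit gene passed the test. Ppp2ca, the main catalytic gene, stood at 4.64 and 4.74 in KO 2 and KO 3, against 4.60, 4.58 and 4.77 in WT. Ppp2cb, its close paralogue, stood at 4.75 and 4.82 in KO 2 and KO 3, against 4.65, 4.65 and 4.80 in WT. For both genes WT 3 was higher than the other WT libraries and the groups overlapped. The log2 folds were 0.04 ± 0.10 for Ppp2ca and 0.09 ± 0.09 for Ppp2cb (SE; limma adjusted p = 0.99998 for both). KO 1 stood at 4.56 for Ppp2ca after rescaling. With KO 1 added, the fold of Ppp2ca was -0.0034, and with libraries centred on their medians it was -0.019.

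The scaffold genes, which hold the catalytic and regulatory subunits together, did not pass the test. Ppp2r1a stood at 5.89 and 5.99 in KO 2 and KO 3, against 5.80, 5.93 and 5.94 in WT, with overlapping groups and a log2 fold of 0.05 ± 0.09 (SE), which was -0.0041 with median centring. Ppp2r1b stood at 3.80 and 3.86 in KO 2 and KO 3, against 3.52, 3.70 and 3.72 in WT. Both KO libraries lay above WT, which among the 9 members other than Ppp2r3d held for this 1 and among all genes tested for 9.82%, with a log2 fold of 0.18 ± 0.11 (SE; limma adjusted p = 0.99998, unadjusted p = 0.142). Ppp2r1b shares 1429 exon bases with Sik2, a kinase gene on the opposite strand. Sik2 stood at 3.59 and 3.63 in KO 2 and KO 3, against 3.52, 3.49 and 3.40 in WT. No source used here says whether the authors counted by strand, so reads of Ppp2r1b and Sik2 cannot be told apart over those bases.

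The regulatory genes of the B and B′ families were also close to WT. Ppp2r2a, a B subunit that acts at mitotic exit, stood at 4.52 and 4.45 in KO 2 and KO 3, against 4.42, 4.47 and 4.41 in WT (log2 fold 0.05 ± 0.08, SE). Ppp2r5a, a B′ subunit, had the narrowest difference of all, at 5.53 and 5.52 in KO 2 and KO 3, against 5.55, 5.55 and 5.46 in WT (log2 fold 0.0046 ± 0.078, SE). The signs of these folds turned negative for both genes with median centring, at -0.0086 for Ppp2r2a and -0.052 for Ppp2r5a.

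Ppp2r5c, a B′ subunit with roles at the centromere, differed between the KO libraries. It stood at 5.39 in KO 2 and 5.76 in KO 3, against 5.36, 5.41 and 5.37 in WT, so KO 2 lay within WT and KO 3 above it. KO 1 stood at 5.35 after rescaling, just under the lowest WT library. The log2 fold of 0.19 ± 0.12 (SE; limma adjusted p = 0.99998) rests on KO 3. Without KO 3 it was 0.013, and without KO 2 it was 0.37 with an unadjusted p of 0.0168 (limma adjusted p = 0.914).

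Over the 9 members other than Ppp2r3d, 8 had a log2 fold above 0 and 1 below, with a median of 0.05 and a range from -0.08 for Ppp2r3c to 0.19 for Ppp2r5c. Over all 22047 genes tested the median was 0.03, and 61.1% were above 0. By limma, 0 of the 9 passed at an adjusted p under 0.05, and 0 had an unadjusted p under 0.05. Over all genes these shares were 0.00454% (1 gene, outside the PP2A lists) and 2.23%. The count of higher genes turned with scaling, since 4 of the 8 were below 0 after median centring (Ppp2ca, Ppp2r1a, Ppp2r2a and Ppp2r5a).

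The intervals set how far the 9 could have moved. Their upper 95% bounds lay between 0.19 for Ppp2r5a and 0.50 for Ppp2r3a. All were under 1.20, the smaller of the Ppp2r3d differences from the WT mean, in KO 3. That difference was among the values Ppp2r3d was picked for, so the gap to it is a description with no test. Changes within these intervals could not be seen with 5 libraries.

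KO 1 was a further library for 6 of the 9. After rescaling, Ppp2r1a stood at 5.60 and Ppp2r5a at 5.25, at -0.29 and -0.27 from their WT means, and Ppp2r2a stood at 4.36, at -0.08 from its WT mean. All 6 covered members lay below the lowest WT library in KO 1, as did 44.0% of the 9946 covered genes tested. KO 1 also stood apart in tissue markers, with a smooth muscle sum over covered genes of 4.14, against 8.12 to 8.59 in the other 5 libraries, and the part of this in its values was not tested. The 6 covered members had a median of -0.10 against the WT mean, where all covered genes tested had -0.07. The scaling factor of KO 1 is a single median, so shifts of this size cannot be told apart from it. For Ppp2r3d itself KO 1 holds no value.

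**Figure D2:**
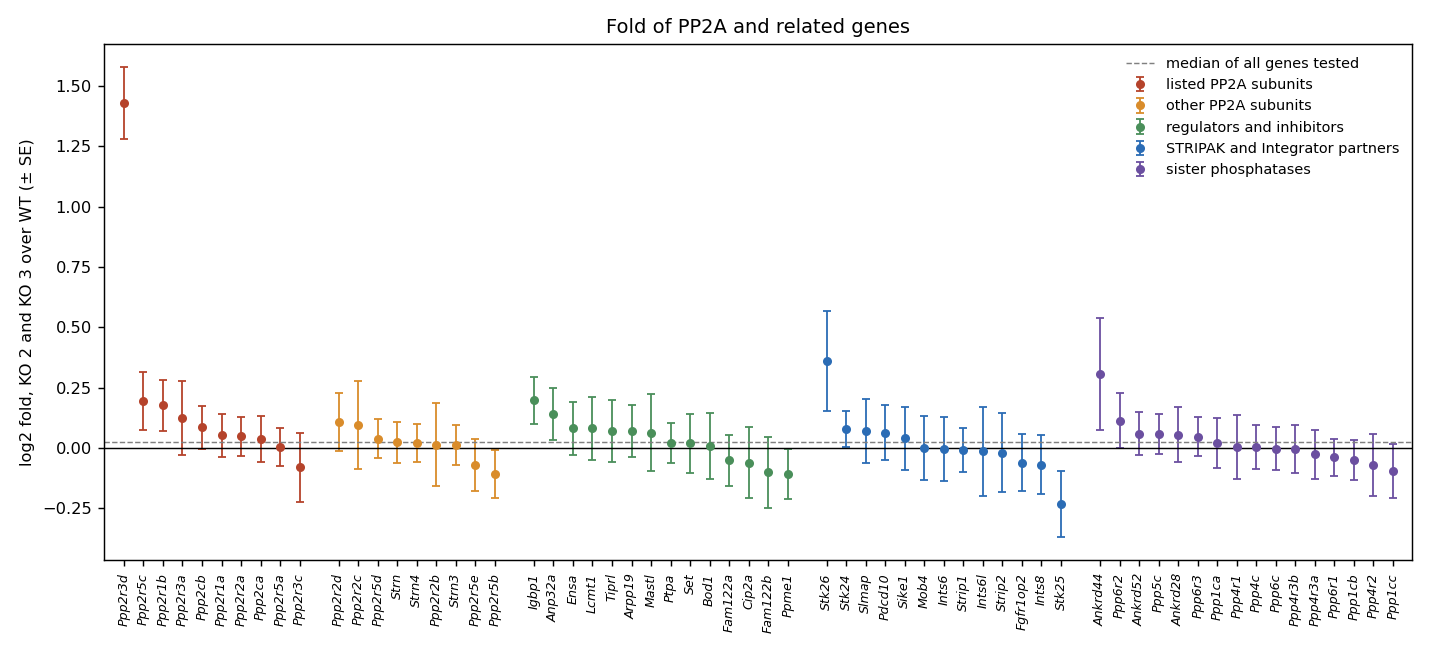
Log2 fold of KO 2 and KO 3 over WT with its SE for the 10 listed subunits and for 4 further lists of PP2A-related genes, sorted within each list. The dashed line is the median of all genes tested (0.03). Ppp2r3d lies at 1.43, and the 61 other genes lie between -0.23 and 0.36.

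The remaining subunits and the genes that act on PP2A were read from lists, chosen by function with earlier results of these data known. Of 9 other subunit genes, 7 had a log2 fold above 0 and 2 below (median 0.02), and 0 passed by limma or had an unadjusted p under 0.05. Ppp2r2d, a B subunit, stood at 4.15 and 3.94 in KO 2 and KO 3, against 3.81, 4.07 and 3.92 in WT (log2 fold 0.11 ± 0.12, SE). Ppp2r5b, a B′ subunit, stood at 3.31 and 3.45 in KO 2 and KO 3, against 3.47, 3.49 and 3.50 in WT, and was the one gene of the list with both KO libraries below WT. Over all genes tested, 3.77% were lower in KO with no overlap. Ppp2r5e, another B′ gene, had a log2 fold of -0.07 ± 0.11 (SE). Of 18 subunit genes other than Ppp2r3d, the striatins included, the log2 folds ran from -0.11 to 0.19.

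Of 14 regulators and inhibitors, 10 had a log2 fold above 0 and 4 below (median 0.04), and 0 passed by limma. Igbp1, which binds free catalytic subunit and protects it from degradation, stood at 4.67 and 4.80 in KO 2 and KO 3, against 4.61, 4.56 and 4.43 in WT. Both KO libraries lay above WT, as held for 9.82% of all genes tested. The log2 fold was 0.20 ± 0.10 (SE; limma adjusted p = 0.99998, unadjusted p = 0.0860). Anp32a, an inhibitor of PP2A, had a log2 fold of 0.14 ± 0.11 with overlapping groups. Ppme1, the methylesterase that removes the carboxymethyl group of the catalytic subunit, had one of -0.11 ± 0.10 (SE), also with overlapping groups.

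Of 13 STRIPAK and Integrator genes, which code for larger assemblies that contain PP2A, 6 were above 0 and 7 below (median -0.0038). Stk24, a kinase of the STRIPAK complex, stood at 5.40 in both KO 2 and KO 3, against 5.32, 5.35 and 5.30 in WT, with no overlap. Stk25, a related kinase, had a log2 fold of -0.23 ± 0.14 and Stk26 one of 0.36 ± 0.21 (SE), both with overlapping groups. Single libraries moved both, since Stk26 was at 0.63 without KO 3 (unadjusted p = 0.0264) and 0.093 without KO 2, and Stk25 at -0.35 without WT 2 (unadjusted p = 0.0193) and -0.15 without WT 3, and neither passed after adjustment by limma. Of 16 genes of the sister phosphatases PP1, PP4, PP5 and PP6, 9 were above 0 and 7 below (median 0.0053). Those with the smallest p were Ankrd44 (log2 fold 0.31 ± 0.23), Ppp6r2 (0.11 ± 0.11) and Ppp1cc (-0.09 ± 0.11, SE), and all of these overlapped with WT. Ankrd44 was at 0.55 without KO 3 and 0.061 without KO 2. In these lists 0 genes passed by limma and 0 had an unadjusted p under 0.05. Over all 61 PP2A and related genes other than Ppp2r3d, the highest upper 95% bound was 0.87, for Ankrd44. Of the 61, 3 were higher and 1 lower in KO with no overlap, against 9.82% and 3.77% of all genes tested.

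The place of Ppp2r3d among all genes is a description, since it was picked from these values. Of 22047 genes tested, 17 had a larger absolute log2 fold. Among 11080 other genes with a WT mean at 2 or more, 1 had a log2 fold as high, Gm42031, a long noncoding RNA gene with 5.05 in KO 2 and 6.12 in KO 3, against 3.43, 0.98 and 3.45 in the WT libraries. Of these 11080 genes, 11 had a fold as far below 0, and 10 of the 11 were immunoglobulin genes or Jchain. The WT SD was 1.42 for Gm42031 and 0.02 for Ppp2r3d. The small WT spread of Ppp2r3d is among the values it was picked for and is no measure of support.

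**Figure D3:**
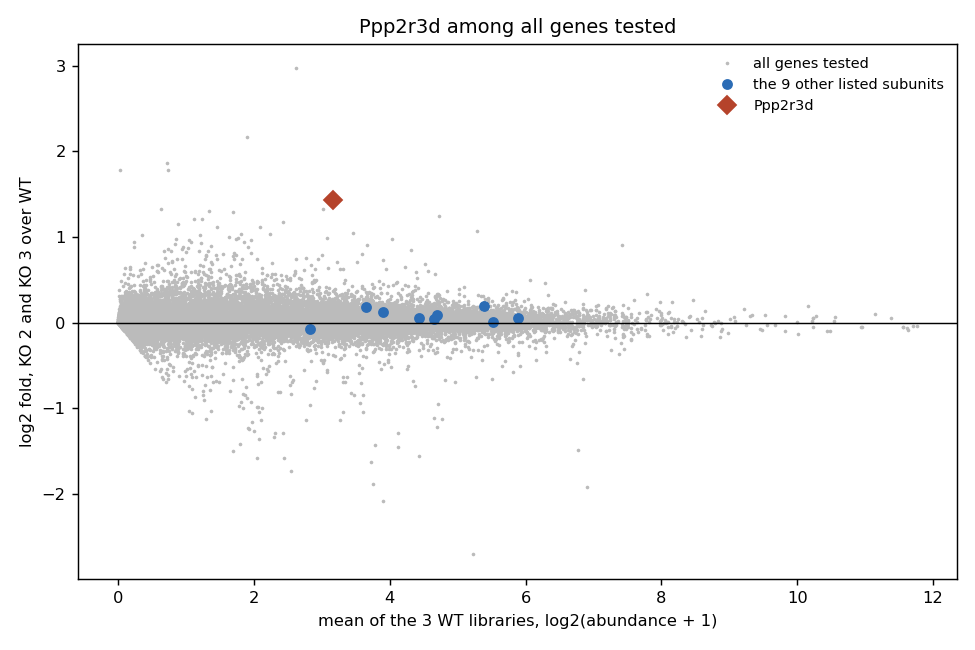
Log2 fold of KO 2 and KO 3 over WT against the WT mean for all 22047 genes tested (grey), the 9 other listed subunits (blue circles) and Ppp2r3d (red diamond). Ppp2r3d lies at a WT mean of 3.17 and a fold of 1.43, at the upper edge of the cloud, and the other subunits lie close to 0.

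The genes most like Ppp2r3d were found by the distance between profiles over the 5 libraries, each gene set against its own WT mean. Of 14240 genes with a WT mean at 1 or more, the closest were Gm43305, Gm46620, Cep85, Cnbd2, Gm10399 and Ablim1, at distances from 0.57 to 1.17 log2 units, where a flat profile would lie at 2.05. Gm43305, a noncoding transcript of chromosome 14, stood at 6.26 and 5.69 in KO 2 and KO 3, against 4.75, 5.08 and 4.35 in WT. KO 1 covers Gm43305 and stood at 4.40 after rescaling, which is within the WT range. Cep85, a centrosomal protein gene, stood at 6.53 and 6.17 in KO 2 and KO 3, against 4.75, 5.37 and 5.70 in WT. Ablim1, an actin-binding protein gene, stood at 4.78 and 4.34 in KO 2 and KO 3, against 4.03, 4.04 and 3.75 in WT. Pearson's r with Ppp2r3d ran from 0.85 for Cnbd2 to 0.94 for Gm46620 over the 5 libraries. All 6 were found by searching for this pattern, and none is a PP2A gene.

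On chromosome 9 the tested genes next to Ppp2r3d all had smaller differences. The nearest on the centromere side with values was 2010315B03Rik, 109.9 kb away, at 4.07 and 3.98 in KO 2 and KO 3, against 4.18, 3.42 and 3.89 in WT. Gm39469, a long noncoding RNA gene 140.5 kb away, stood at 1.54 and 1.11 in KO 2 and KO 3, against 0.94, 0.66 and 1.11 in WT (log2 fold 0.42 ± 0.20, SE; limma adjusted p = 0.99998). Without KO 3 the log2 fold of Gm39469 was 0.63 (unadjusted p = 0.0321), and without KO 2 it was 0.20. Gm21836 and Gm47181, the nearest listed genes, were at 0 in every library, and no gene on the telomere side was tested.

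Within 2 Mb of Ppp2r3d 40 other genes were tested. Their log2 folds ran from -0.25 to 0.74 with a median of 0.05, and 6 of the 40 were higher in KO with no overlap, against 9.82% of all genes. By limma 0 of the 40 passed, against 0.00454% of all genes tested. An unadjusted p under 0.05 was found for 1 of the 40, against 2.23% of all genes tested. The highest fold was that of Lars2, a mitochondrial tRNA ligase gene, at 3.12 and 4.24 in KO 2 and KO 3, against 2.92, 2.93 and 2.95 in WT, and it rested mainly on KO 3. Over the 1208 tested genes of chromosome 9 the median log2 fold was 0.02.

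**Figure D4:**
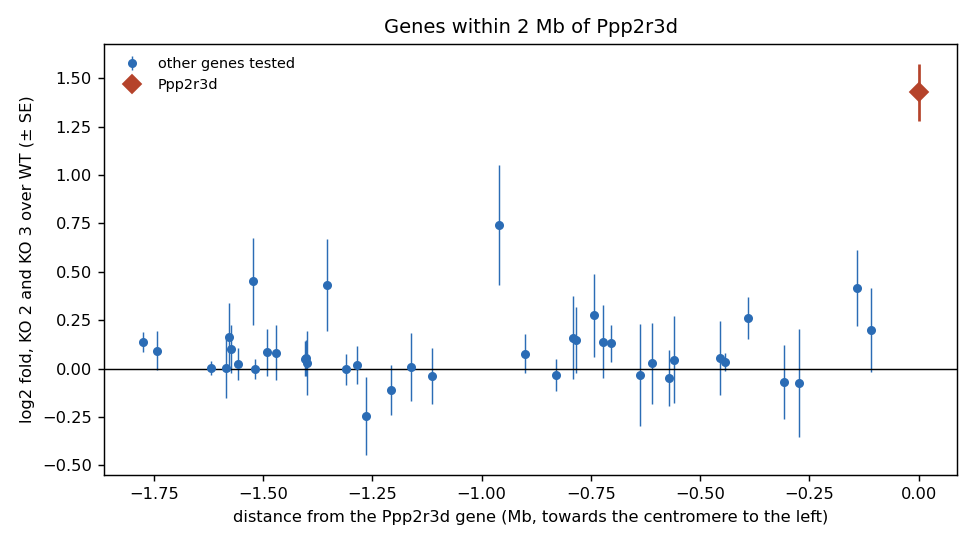
Log2 fold of KO 2 and KO 3 over WT with its SE for the 40 genes tested within 2 Mb of Ppp2r3d, against their distance from it, with Ppp2r3d at 0. Ppp2r3d lies at 1.43, and its neighbours lie between -0.25 and 0.74.

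Shared transcript sequence was also measured. A stretch of 144 bases of the 2557-base Ppp2r3d model matched transcripts of 426 other genes at 95% identity or more over at least 100 bases, and no match reached 200 bases. The part of such reads in the Ppp2r3d values was not tested. Other members shared sequence too. Ppp2ca matched 198 other genes, the longest match being 1807 bases at 100% identity with 9430098F02Rik. Ppp2r5a matched 37, of which 24 over at least 200 bases, the longest being 1463 bases at 96.4% identity with Gm13169. Ppp2cb and Ppp2r1a matched 0. The part of such reads in the values of these members was not tested either. Ppp2ca and Ppp2cb had no such match with each other.

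In whole tissue, fewer cells of a type and less RNA per cell cannot be told apart, so marker sums were set beside Ppp2r3d. The 6 immune markers summed to 7.35 in KO 2 and 5.90 in KO 3, against 6.10, 7.08 and 6.03 in WT, on the log2 scale. KO 2, the higher KO library for Ppp2r3d, thus lay above WT for immune markers and KO 3 below it. Epithelial markers summed to 10.14 and 10.32 in KO 2 and KO 3, against 10.02 to 10.35 in WT, and enteric neuron markers to 3.99 and 4.61, against 4.10 to 4.48. Of 4 glial and 4 fibroblast markers, all 8 had log2 folds below 0, where 61.1% of all genes tested were above 0. The medians were -0.18 and -0.21, and 0 passed by limma. Glial markers summed to 2.61 and 2.79 in KO 2 and KO 3, against 2.78 to 3.16 in WT. Fibroblast markers summed to 8.62 and 8.82, against 8.76 to 9.13, so KO 3 lay within WT for both. Other lists went otherwise, with log2 folds above 0 for 5 of 5 distal and 3 of 5 proximal intestine markers. The same held for 5 of 6 immune, 3 of 6 epithelial and 3 of 6 enteric neuron markers. For smooth muscle it held for 2 of 5 and for endothelium for 1 of 4. Smooth muscle markers summed to 9.51 and 9.90 in KO 2 and KO 3, against 9.53 to 9.94 in WT. No marker gene was at 0 in all 5 libraries. Xist, the RNA of the inactive X chromosome, was at 0.21 in KO 2 and 7.07 in KO 3, against 7.25, 0.20 and 6.85 in WT, so both groups held high and low libraries. The part of these markers and of Xist in the Ppp2r3d difference was not tested.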

How the data were processed

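The authors deposited 1 table of log values per gene for 6 libraries, taken here as log2(abundance + 1). No source used here gives the log base, the unit, the aligner or how reads were counted. The build is mm10, per the submitters' processing notes, which GENCODE vM21 (GRCm38) shares. Depth is unknown, so no counting interval or count model was used. Of 32245 rows, 26 had dates for symbols and were left out.

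KO 2 and KO 3 were compared with 3 WT libraries with a 2-sided limma fit (version 3.58.1, R 4.3.3) on group alone, letting the variance follow the level. The filter asked for values above 0 in 3 or more of the 5 libraries, which 22047 genes met, and Benjamini-Hochberg adjustment ran over all of them at a threshold of 0.05. The fit was tested on simulated data. KO 1 was divided by 2.12 on the linear scale where it has values. Named genes were the 10 members, the 3 of each list with the smallest p, the 6 profiles closest to Ppp2r3d, and its neighbours with an exon within 200 kb. A further neighbour that the rule chose is not reported here. Gm42031, Lars2, Xist, Sik2, Fam177a and 1700047I17Rik2 were named after their values were seen. The members and lists were chosen with earlier results of these data known. Transcripts were matched with BLAST 2.17.0. Of the 10 members, 8 had a RefSeq promoter window. Alternatives were another scaling, filter, added constant, log base or variance model, a replicate block, KO 1 added, and each library left out.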

Additional observations from a re-analysis of the deposited data

Results flagged for a closer look

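KO 1, which lies outside the comparison of KO with WT, was read for a signal above WT in the PP2A subunit genes it covers. After rescaling, Ppp2r5d, a B′ subunit gene, stood at 5.003 in KO 1, above the highest WT library by more than the range of the WT libraries. KO 2 and KO 3 stood at 4.76 and 4.72 and the WT libraries at 4.69, 4.76 and 4.65. Of the 12 subunit genes that KO 1 covers, 1 did so, against 10.5% of the 9946 covered genes tested. The count is thus no larger than the share over all covered genes would give. KO 1 also stood apart in tissue markers over covered genes, with proximal intestine markers summing to 7.52, against 1.41 to 2.40 in the other 5 libraries, and smooth muscle markers to 4.14, against 8.12 to 8.59. Their part in the Ppp2r5d value was not tested.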

How the results depend on the processing

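The Ppp2r3d log2 fold of 1.43 stayed above 0 in every setting except with all 6 libraries as deposited (-0.10), where the listed zero of KO 1 enters the KO mean. It was 1.12 with an added constant of 5 and 2.06 with the values read as natural logs, which multiplies every fold by 1 constant, and 1.20 to 1.66 over left-out libraries, with the lowest value without KO 2 and the highest without KO 3. The median of the 9 other members (0.05) was 0.27 with all 6 libraries as deposited and 0.02 to 0.11 over left-out libraries. It was 0.0068 with KO 1 rescaled and missing elsewhere, and turned to -0.0041 with median centring. By limma, the count of the 9 at an unadjusted p under 0.05 was 0 in all settings that kept both KO 2 and KO 3. The 1 gene called over all genes fell to 0 with all 6 libraries as deposited, the replicate block, no filter, the stricter filter, an added constant of 0.1, and any library left out (0 to 0).

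With all 6 libraries as deposited the zeros of KO 1 turned Ppp2r3a (-1.22), Ppp2cb (-1.51), Ppp2r1b (-1.10), Ppp2r2d (-1.24), Igbp1 (-1.38), Anp32a (-1.47), Stk26 (-0.063), 2010315B03Rik (-1.14) and Gm39469 (-0.024). Its raised values turned Ppp2r3c (0.23), Ppp2r5b (0.23), Ppp2r5e (0.21) and Stk25 (0.25). With KO 1 rescaled and missing elsewhere, Ppp2ca (-0.0034), Ppp2r1a (-0.060) and Ppp2r5a (-0.088) turned. Median centring turned Ppp2ca (-0.019), Ppp2r1a (-0.0041), Ppp2r2a (-0.0086) and Ppp2r5a (-0.052), and quantile normalization turned Ppp2r5a (-0.016). The median of all genes was -0.03 with centring and 0.03 without. Left-out libraries turned genes near 0: Ppp2r3c ran from -0.23 to 0.075, Ppp2ca from -0.012 to 0.10, Ppp2r1a from -0.0018 to 0.11, Ppp2r5a from -0.024 to 0.019, Ppp2r5e from -0.17 to 0.026, Ppp6r2 from -0.0059 to 0.23 and 2010315B03Rik from -0.0063 to 0.37.

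For replicate numbers 2 and 3, the KO and WT deviations from the group means had correlations of 0.28 and 0.33, and number 1 cannot be examined, so the numbers are not shown to pair the libraries. The replicate block gave 1.42 for Ppp2r3d and changed no sign or call among the members. Where 1 KO library was left, it was assumed to vary like the other group. With 5 libraries of unknown depth, changes within the intervals above could not be seen.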
